A study of Mus musculus with 90 samples.

Results

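The genes described here mostly encode carriers that move neurotransmitters and amino acids across cell and vesicle membranes. They are the measured genes whose symbols place them in the solute carrier families Slc1, Slc6, Slc7, Slc17, Slc18, Slc36 and Slc38, with the glial glutamate carriers Slc1a2 and Slc1a3 left out. Of 19962 genes measured, 71 belonged to these families by symbol and 69 were kept. Of the 69, 2 were given no role: Slc7a6os and Slc6a21. Slc7a6os is included by its symbol and is not counted as a carrier here. It is named for the strand opposite Slc7a6, and the gene records of Slc7a6os and Slc7a6 do not overlap.

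RNA was measured in mouse brain sections by GeoMx Digital Spatial Profiling, in which light frees the tags of RNA-bound probes within a drawn area of interest (AOI) and the tags are counted by sequencing. The mice were 6 exposed to chronic social stress (CSS) and 4 controls. Each gave AOIs of the choroid plexus (CP), the hippocampal fields CA3 and CA1, the motor cortex (MC) and the somatosensory cortex (SS), labelled p16 high (46 AOIs) or p16 low (44 AOIs), for 90 AOIs in all. No CP AOI of CSS mouse 1169 was analysed here, so CP values come from 9 mice. The labels state no strain, sex or age, nor how an AOI was judged p16 high or low, where p16 is the cell cycle inhibitor encoded by Cdkn2a. An AOI holds several cell types, so fewer cells of a type and less RNA per cell cannot be told apart.

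Carriers set how long a transmitter acts and which amino acids a cell can draw on. Plasma membrane carriers of the Slc1 and Slc6 families use the sodium gradient to clear glutamate, GABA, glycine and monoamines from the extracellular space, and vesicular carriers of the Slc17 and Slc18 families load transmitters into vesicles. Light chains of the Slc7 family exchange amino acids while bound to a heavy chain such as Slc3a2, and Slc38 carriers move glutamine and other neutral amino acids. The choroid plexus epithelium makes cerebrospinal fluid and moves amino acids between blood and that fluid.

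Values are a signal that was scaled by the authors to the same median of 22.067 in every AOI, averaged per mouse, and the mouse is the replicate. Recovered probe counts ran from 184469 to 2098984 per AOI, with 6 to 82 counts for the median gene, which limits the precision of low genes. The negative probe, which has no target in the mouse transcriptome, averaged 13.4 in CP, 14.2 in CA3, 13.1 in CA1, 16.5 in MC and 15.9 in SS. All 8 markers of choroid plexus epithelium were higher in CP, with a summed signal of 94379 there and of 189 to 379.9 in the other subregions. All 5 CA3 markers were higher and all 5 CA1 markers lower in CA3 than in CA1, although the p16 high CA3 AOI of CSS mouse 1163 had a summed CA1 marker signal of 284, against 101 to 207 in the other CA3 AOIs. CP AOIs also held more signal of 7 leptomeningeal fibroblast markers, which summed to 312 in CP and to 110.0 to 129 elsewhere. Other lists with their highest sum in CP were 6 thalamus markers (344, against 117 to 228) and 8 mural cell and endothelium markers (320, against 176 to 230). The 4 dentate granule cell markers were a further such list (122, against 58.4 to 78.4).

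A member was taken as clear of background where its mean signal was at least 2 times the mean negative probe. By this measure 34 of the 69 members (49.3%) were clear in at least 1 subregion, against 49.7% of all genes, and 35 were clear in none. With a bar of 3 times the negative probe, chosen after the data were seen, 20 were clear. Clear members numbered 22 in CP (31.9%), 25 in CA3 (36.2%), 27 in CA1 (39.1%), 17 in MC (24.6%) and 17 in SS (24.6%). The shares of all genes were near these, at 37.4% in CP, 36.1% in CA3, 40.9% in CA1, 24.4% in MC and 25.1% in SS. The 9 that were clear in all 5 subregions were the taurine carrier Slc6a6, the creatine carrier Slc6a8, the glycine carrier Slc6a9, the vesicular neutral amino acid carrier Slc6a17, Slc7a4, the light chain Slc7a8, and the neutral amino acid carriers Slc38a1, Slc38a2 and Slc38a7.

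**Figure D1:**
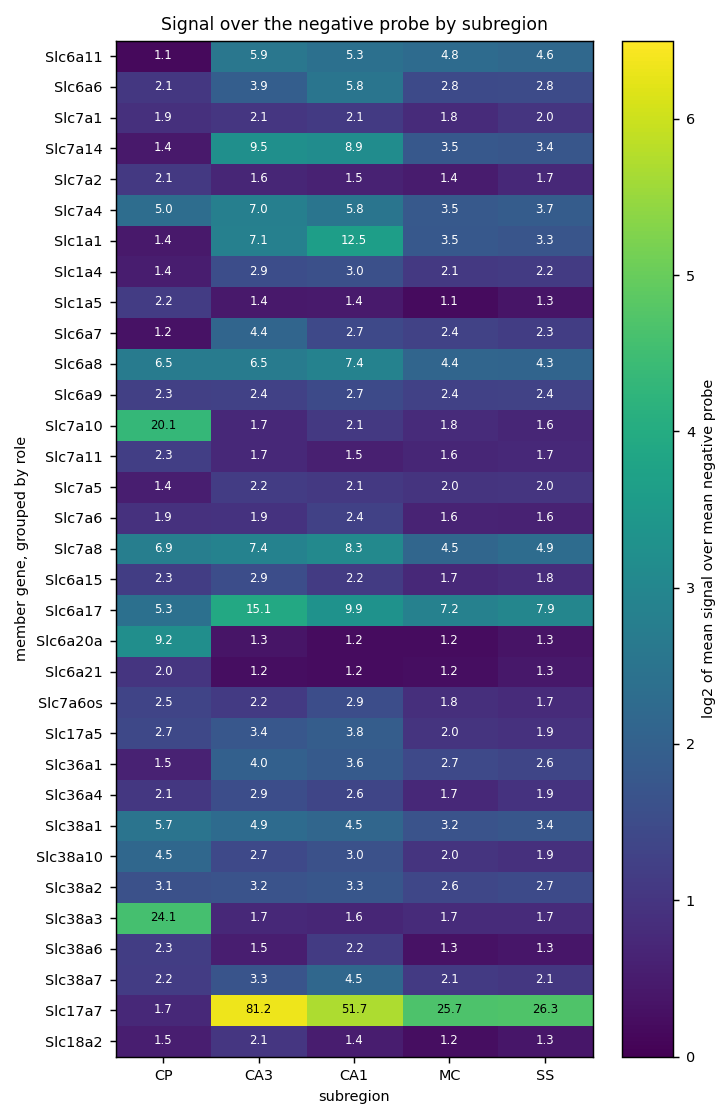
Mean signal over mean negative probe in each subregion (columns) for the members that were clear of background in at least 1 (rows, grouped by role), printed in each cell and coloured on a log2 scale. Slc38a3, Slc7a10 and Slc6a20a reach 24.1, 20.1 and 9.24 times the negative probe in CP, and Slc17a7 reaches 81.2 times in CA3.

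No plasma membrane monoamine carrier reached 2 times the negative probe. The noradrenaline carrier Slc6a2, the dopamine carrier Slc6a3 and the serotonin carrier Slc6a4 were clear in no subregion, with means of 0.452 to 0.615, 1.09 to 1.18 and 1.38 to 1.67 times the negative probe. Slc6a2 lay under the negative probe in every mouse and subregion. These carriers are known from monoamine neurons, whose cell bodies lie outside the 5 subregions. Of the 3 vesicular glutamate carriers 1, Slc17a7, was clear, while Slc17a6 and Slc17a8 had means of 1.02 to 1.40 and 1.12 to 1.39 times the negative probe.

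In the choroid plexus, 8 members were higher and 13 lower than in the mean of the same mice's other subregions. Among all genes 20.6% were called higher and 19.6% lower, so a call in CP was common among measured genes. A call here and below is an adjusted p under 0.05 from limma with Benjamini-Hochberg adjustment over all 19962 genes. The median log2 difference was −0.06 over the members and −0.03 over all genes. The negative probe differed by −0.14 (log2, SE 0.02) and was lower in CP in 9 of 9 mice.

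Slc38a3, Slc7a10 and Slc6a20a had the largest rises in CP among the members. Slc38a3, which moves glutamine with sodium (chr9:107651154-107668968, GRCm38.p6), had a lowest, median and highest signal of 206, 346 and 375 in the CP of 9 mice, against 17.9, 26.6 and 30.2 in their other subregions (log2 3.63, SE 0.08, adjusted p = 4.39e-18). Slc7a10, a light chain that exchanges small neutral amino acids including D-serine (chr7:35186095-35201116), had 165, 277 and 329 in CP, against 23.3, 25.5 and 36.4 elsewhere (log2 3.33, SE 0.09, adjusted p = 1.44e-16). Slc6a20a, a carrier of proline and other imino acids (chr9:123636907-123678832), had 84.4, 132 and 142 in CP, against 13.6, 19.2 and 22.4 elsewhere (log2 2.73, SE 0.11, adjusted p = 2.76e-14). In each of these genes the lowest CP value lay above the highest value elsewhere. Outside CP, Slc38a3 and Slc6a20a were under 2 times the negative probe in each subregion, and Slc7a10 was at 1.62 to 2.10 times. The neighbouring paralog Slc6a20b had means of 0.941 to 1.13 times the negative probe, and whether the 2 probes can be told apart by sequence was not tested.

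The other 5 members that rose in CP did so by less. Slc38a10, an Slc38 family carrier, had signals of 47.8, 61.7 and 66.99 in CP, against 32.1, 35.05 and 41.03 elsewhere (log2 0.76, SE 0.08, adjusted p = 1.46e-07). Slc1a5, a carrier of neutral amino acids including glutamine, had 22.1, 27.4 and 44.1 in CP, against 15.8, 19.2 and 20.8 elsewhere (log2 0.64, SE 0.13, adjusted p = 0.000437). For both genes the CP values lay above every mouse's mean over its other subregions, while the values of single subregions overlapped with CP. Slc38a1, a glutamine carrier, averaged 76.4 ± 10.6 in CP and 58.4 ± 9.01 elsewhere (SD, n = 9 mice each, log2 0.42), and Slc38a6 averaged 30.4 ± 5.04 in CP and 22.99 ± 2.52 elsewhere (log2 0.42). Slc7a11, the light chain that takes up cystine in exchange for glutamate, averaged 30.8 ± 4.17 in CP and 24.7 ± 3.07 elsewhere (log2 0.34, SE 0.10, adjusted p = 0.00744). The ranges of Slc38a1, Slc38a6 and Slc7a11 overlapped between CP and the other subregions, although the difference was positive in 9 of 9 mice. With p16 high AOIs alone Slc7a11 and Slc38a6 did not pass (adjusted p = 0.241 and 0.135), and Slc7a11 did not with edgeR on recovered counts (adjusted p = 0.0754).

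The RefSeq promoter table held 5 of the 8 members that rose in CP, and the bases before the start of all 5 are shown because these genes were called higher in CP. Capitals mark the CARE motif TGATGNAA, known for binding the amino acid response factor ATF4, and the CRE motif TGACGTCA, known for binding CREB. Sequences are given from 5′ to 3′ on the strand of the gene, from RefSeq, build GRCm38.p6.
Slc7a10, chr7:35186135-35186384 (plus strand): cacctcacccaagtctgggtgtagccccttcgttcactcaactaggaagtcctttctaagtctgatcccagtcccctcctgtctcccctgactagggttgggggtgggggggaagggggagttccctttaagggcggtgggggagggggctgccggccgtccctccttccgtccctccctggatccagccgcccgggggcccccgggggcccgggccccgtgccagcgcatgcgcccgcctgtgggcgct
Slc6a20a, chr9:123678833-123679082 (minus strand): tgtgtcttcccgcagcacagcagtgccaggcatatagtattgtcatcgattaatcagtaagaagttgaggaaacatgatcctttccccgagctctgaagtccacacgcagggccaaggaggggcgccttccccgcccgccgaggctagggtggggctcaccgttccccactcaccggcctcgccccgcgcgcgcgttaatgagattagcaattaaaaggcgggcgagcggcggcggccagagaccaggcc
Slc38a10, chr11:120151352-120151601 (minus strand): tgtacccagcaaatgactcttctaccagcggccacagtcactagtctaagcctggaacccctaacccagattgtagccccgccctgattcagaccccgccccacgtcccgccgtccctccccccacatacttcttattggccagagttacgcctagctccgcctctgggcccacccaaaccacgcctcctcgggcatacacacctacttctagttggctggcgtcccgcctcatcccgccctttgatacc
Slc38a6, chr12:73286598-73286738 (plus strand): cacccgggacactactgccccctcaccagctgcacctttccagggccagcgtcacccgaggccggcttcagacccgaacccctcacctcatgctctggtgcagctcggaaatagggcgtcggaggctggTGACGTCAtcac
Slc7a11, chr3:50443614-50443863 (minus strand): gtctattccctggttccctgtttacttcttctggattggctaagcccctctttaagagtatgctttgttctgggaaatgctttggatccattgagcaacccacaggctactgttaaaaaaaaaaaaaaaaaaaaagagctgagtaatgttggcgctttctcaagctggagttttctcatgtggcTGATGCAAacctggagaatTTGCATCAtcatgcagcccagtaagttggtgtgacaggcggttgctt
The Slc38a6 window is cut where its gene record begins, and the Slc7a10 and Slc7a11 windows lie inside gene records that reach further upstream.

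Both strands of the 250 bases before each start were searched for these motifs and for the bicoid-type homeodomain motif TAATCC, and none of these overlap where they were found in the windows shown. CARE was found in 6.94% of 72 promoters of 49 member genes and in 3.45% of all 32851 promoters. In Slc7a11 it lay 66 bases before the start on the gene's strand and 47 bases before it on the other strand. CRE was found in 1.39% of member promoters, that of Slc38a6, and in 1.55% of all. TAATCC was found in 2.78% of member promoters and 6.25% of all, and in none of the 5 that rose in CP.

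Among the members that fell in CP were carriers of glutamate and GABA. Slc17a7, which loads glutamate into vesicles, had signals of 17.01, 22.1 and 29.4 in CP, against 415, 673 and 874 elsewhere (log2 −4.70, SE 0.12). Slc6a11, a GABA carrier known from astrocytes, had 11.03, 13.4 and 24.5 in CP, against 47.8, 82.9 and 90.6 elsewhere (log2 −2.28, SE 0.12, adjusted p = 5.83e-12). The CP values of both genes lay below all values elsewhere. The neuronal glutamate carrier Slc1a1 (log2 −2.17), Slc7a14 (−2.17), the proline carrier Slc6a7 (−1.30), the proton-coupled carrier Slc36a1 (−1.16), Slc6a17 (−1.0005), Slc6a6 (−0.93) and the neutral amino acid carrier Slc1a4 (−0.91) were lower in 9 of 9 mice each. Of these, Slc6a17 and Slc6a6 were still clear of background in CP, at 5.26 and 2.08 times the negative probe. In the same comparison 7 of 7 excitatory neuron markers, 7 of 8 inhibitory neuron markers and 7 of 8 astrocyte markers were lower in CP, and their part in the members' fall was not tested.

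Genes that work beside the members moved both ways in CP. Of 11 partner and neighbouring carriers 3 were higher and 4 lower. Slc3a2, the heavy chain of several Slc7 light chains, averaged 143 ± 26.96 in CP and 67.8 ± 11.2 elsewhere (log2 1.09, SE 0.06, adjusted p = 1.90e-11). Slc29a4, a monoamine carrier, averaged 137 ± 25.99 in CP and 27.03 ± 3.41 elsewhere (log2 2.33, SE 0.09). Of 10 enzymes of glutamate and GABA metabolism 1 was higher, Abat, which breaks GABA down (log2 1.42, SE 0.07), and 5 were lower, among them Gad1, which makes GABA (log2 −2.27, SE 0.12). Of 15 enzymes of monoamine, acetylcholine and glycine metabolism 2 were higher, the monoamine oxidase Maob (log2 1.80, SE 0.10) and Gldc of the glycine cleavage system (log2 1.61, SE 0.11), and 2 were lower, among them the acetylcholine esterase Ache (log2 −1.54, SE 0.12).

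**Figure D2:**
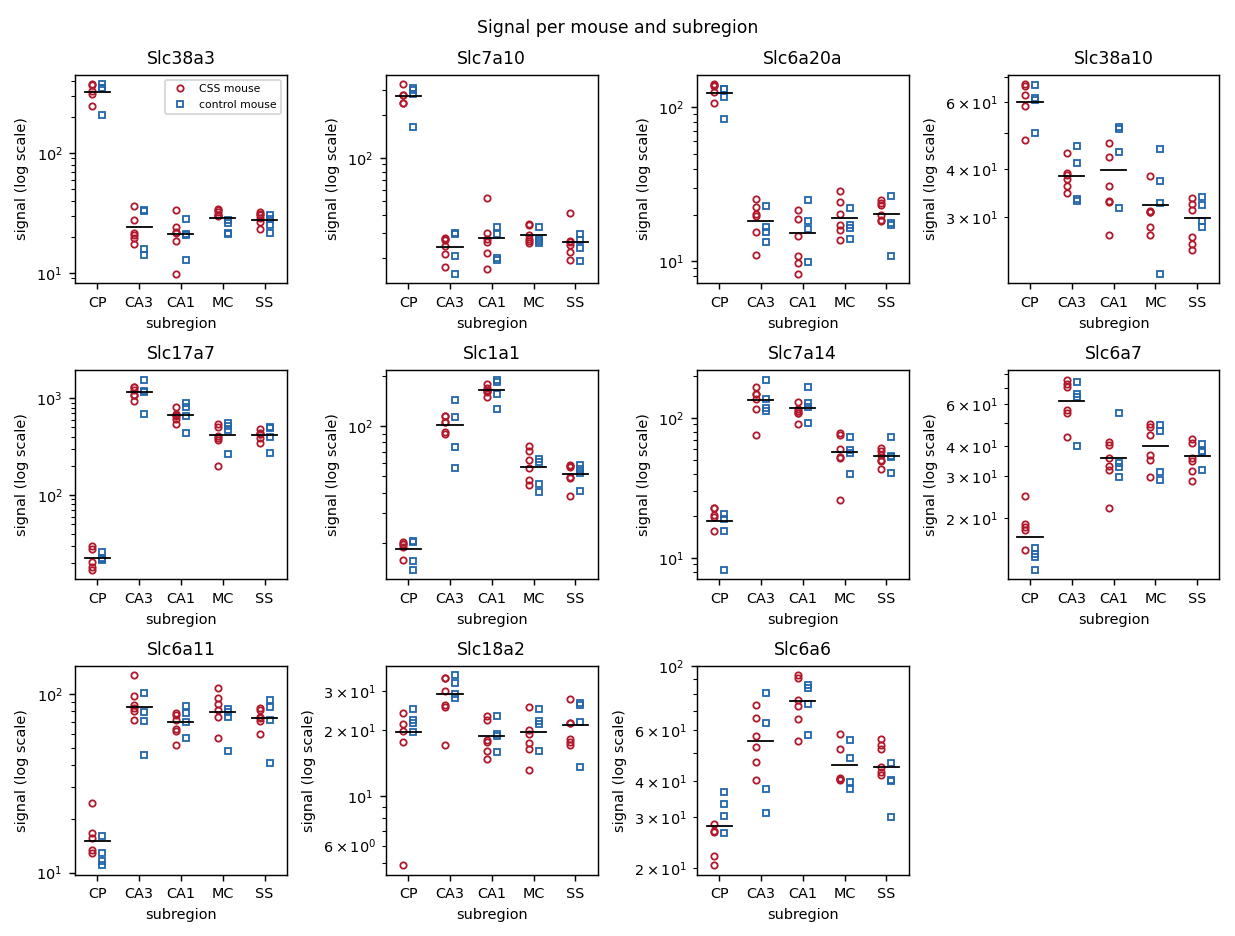
Signal (log axis) of 11 members in each mouse by subregion, with CSS mice as circles, control mice as squares and the mean over mice as a bar. The CP values of Slc38a3, Slc7a10 and Slc6a20a lie above those of every other subregion, and those of Slc17a7 and Slc6a11 below.

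Between the hippocampal fields 6 members were higher and 4 lower in CA3 than in CA1, where 5.04% of all genes were called higher and 12.7% lower. The median log2 difference was 0.11 over the members and 0.00 over all genes, and the negative probe differed by 0.11 (SE 0.02). Slc17a7 had a lowest, median and highest signal of 687, 1182 and 1560.0 in the CA3 of 10 mice, against 438, 663 and 888 in CA1 (log2 0.76, SE 0.07, adjusted p = 3.60e-10). Slc6a17, a carrier of neutral amino acids on synaptic vesicles, had 116, 224 and 321 in CA3, against 80.3, 122 and 183 in CA1 (log2 0.70, SE 0.08, adjusted p = 4.79e-08). Slc6a7, which carries proline, had 39.8, 65.04 and 75.8 in CA3, against 22.1, 33.6 and 55.2 in CA1 (log2 0.78, SE 0.12, adjusted p = 4.25e-06). The ranges of the fields overlapped for each of these genes, but each was higher in CA3 in 10 of 10 mice.

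Slc18a2, which loads monoamines into vesicles, was clear of background in CA3 alone, at 2.05 times the negative probe. Its signals were 17.2, 29.6 and 35.3 in CA3, against 14.7, 18.4 and 23.2 in CA1 (log2 0.63, SE 0.14, adjusted p = 0.00125), higher in CA3 in 10 of 10 mice. With p16 low AOIs alone it did not pass (log2 0.54, adjusted p = 0.0540), and without mouse 1169 or mouse 1182 its CA3 mean was under the background bar. Slc6a15 (log2 0.42), a neutral amino acid carrier, and Slc7a4 (0.35) were also called higher, in 8 of 10 mice each, and are named after their values were seen. Slc6a15 did not pass with p16 low AOIs alone, with the negative probe subtracted, or without mouse 1152, 1162, 1168, 1169 or 1170. Slc7a4 did not pass with either p16 label alone.

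Slc1a1, the neuronal glutamate carrier, was lower in CA3. It had signals of 55.9, 106 and 143 in CA3, against 127, 163 and 191 in CA1 (log2 −0.74, SE 0.09, adjusted p = 9.63e-08). Slc6a6, the taurine carrier, had 30.9, 55.03 and 80.7 in CA3, against 55.2, 75.4 and 93.2 in CA1 (log2 −0.51, SE 0.11, adjusted p = 0.000741). Both were lower in CA3 in 10 of 10 mice with overlapping ranges, and Slc6a6 did not pass with p16 high AOIs alone (adjusted p = 0.107). Slc38a6 (log2 −0.48) and Slc38a7 (−0.32) were also called lower and are named after their values were seen. Without mouse 1151, mouse 1152 or mouse 1157 the members called lower were 2, Slc1a1 and Slc6a6. Of the fits with a mouse left out, Slc38a7 was called only in that without mouse 1163.

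Markers of other cell types and the members' partner genes also differed between the fields. The 8 astrocyte markers summed to 842 in CA3 and 539 in CA1, with 4 called higher, and the 8 oligodendrocyte markers to 593 in CA3 and 385 in CA1, with 5 called higher. The 6 thalamus markers summed to 228 in CA3 and 117 in CA1, with 1 called higher, and the 8 markers of choroid plexus epithelium to 379.9 in CA3 and 189 in CA1, with 1 called higher and 1 lower. The part of these 4 marker lists in the members' differences was not tested. Of the 10 enzymes of glutamate and GABA metabolism 3 were higher in CA3 and 0 lower, among them Glul, which makes glutamine (log2 0.53, SE 0.07), and Abat (log2 0.47, SE 0.10). Of the 15 enzymes of the other list 2 were higher, among them Ache (log2 0.56, SE 0.10), and 0 lower.

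**Figure D3:**
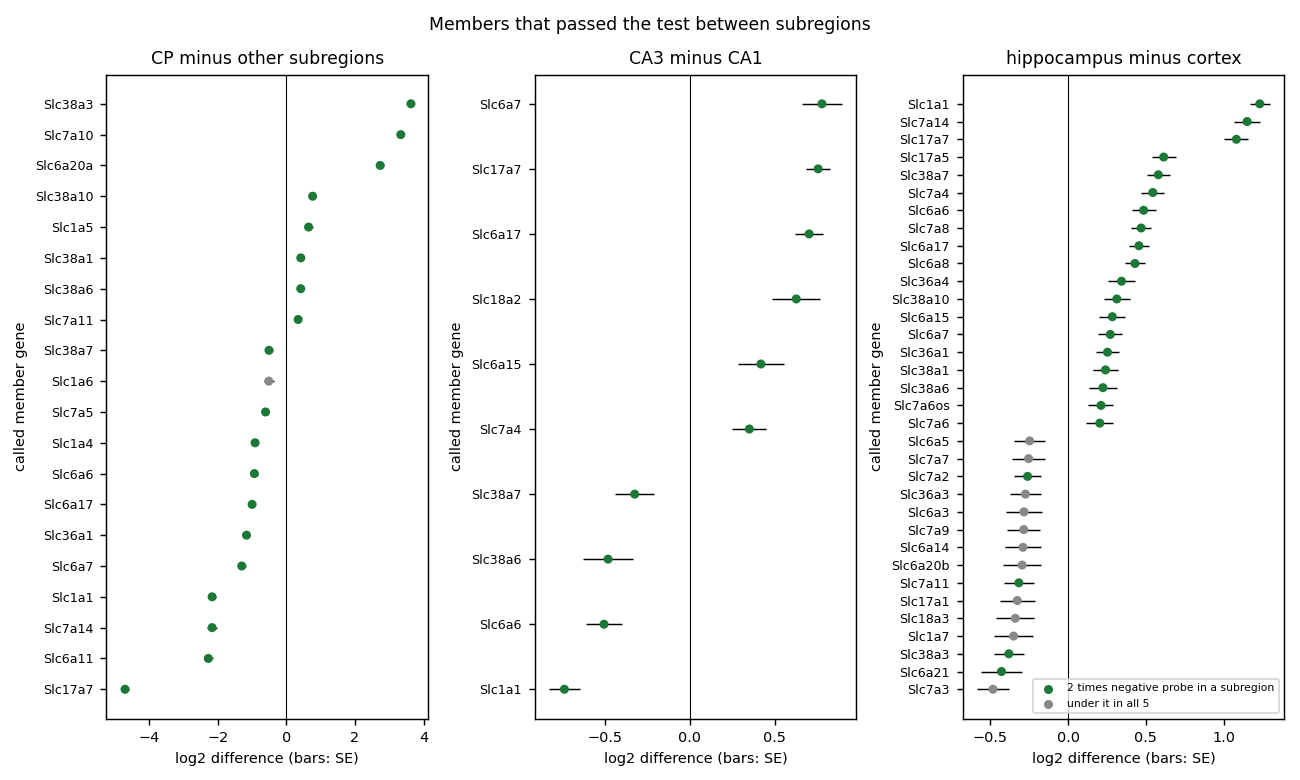
Log2 difference of called members (points, bars for the SE) in CP minus the other subregions (left), CA3 minus CA1 (middle) and hippocampus minus cortex (right). Green points are members clear of background in a subregion, and grey points are under that bar in all 5.

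Hippocampus, the mean of CA3 and CA1, differed from cortex, the mean of MC and SS, in 34 members. Of these 19 were higher and 15 lower in hippocampus, where 34.4% of all genes were called higher and 16.7% lower. Slc1a1 (chr19:28835135-28913960) had signals of 91.5, 134 and 164 in hippocampus, against 40.6, 55.5 and 66.9 in cortex (log2 1.23, SE 0.06, adjusted p = 2.59e-18). Slc7a14, of the cationic amino acid carrier branch (chr3:31202854-31310567), had 94.1, 121 and 177 in hippocampus, against 40.2, 52.9 and 73.1 in cortex (log2 1.15, SE 0.08, adjusted p = 1.17e-14). Slc17a7 (chr7:45163921-45176139) had 562, 932 and 1224 in hippocampus, against 269, 429 and 525 in cortex (log2 1.08, SE 0.08, adjusted p = 1.23e-14), but under quantile normalization its difference turned to −0.075 (adjusted p = 0.155). Every mouse's hippocampal mean of these genes lay above every mouse's cortical mean.

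Smaller rises in hippocampus, positive in 10 of 10 mice, were those of Slc17a5, which exports sialic acid from lysosomes (log2 0.61), and Slc38a7 (0.58), which did not pass under quantile normalization (log2 0.17, adjusted p = 0.0530). Slc7a4 (0.54), the light chain Slc7a8 (0.47), Slc6a17 (0.46) and the creatine carrier Slc6a8 (0.43) were also higher in 10 of 10 mice, but under quantile normalization they turned to −0.10, −0.27, −0.38 and −0.27. Of these, Slc7a8, Slc6a17 and Slc6a8 then passed in the opposite direction (adjusted p = 0.000106, 8.06e-08 and 0.000246), and under scaling to the 75th percentile the same 3 did not pass (log2 0.11, 0.10 and 0.073). Slc38a10 (0.31) turned to −0.038 under scaling to the 75th percentile. That scaling moved the median log2 difference of all genes to −0.37, against −0.03 with the authors' scaling, and called 6 members higher and 49 lower. Slc1a1, Slc7a14 and Slc17a5 kept their direction and their call under each alternative tried.

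Of the 15 members called lower, 11 were clear of background in no subregion and 0 were clear in hippocampus or cortex. Slc7a3, a cationic amino acid carrier, was the one that was lower in every mouse. Its signals were 11.5, 15.9 and 19.00 in hippocampus, against 17.6, 21.3 and 23.6 in cortex (log2 −0.48, SE 0.10, adjusted p = 0.000115). Slc7a3 reached at most 1.38 times the negative probe in any subregion. It did not pass with the negative probe subtracted (adjusted p = 0.114) or with p16 high AOIs alone (adjusted p = 0.0823). The negative probe was also lower in hippocampus, by a log2 difference of −0.23 (SE 0.02, lower in 10 of 10 mice), and the differences of the 15 members ran from −0.48 to −0.25. With the negative probe subtracted, 1 member, Slc38a3, was called lower and 21 higher.

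**Figure D4:**
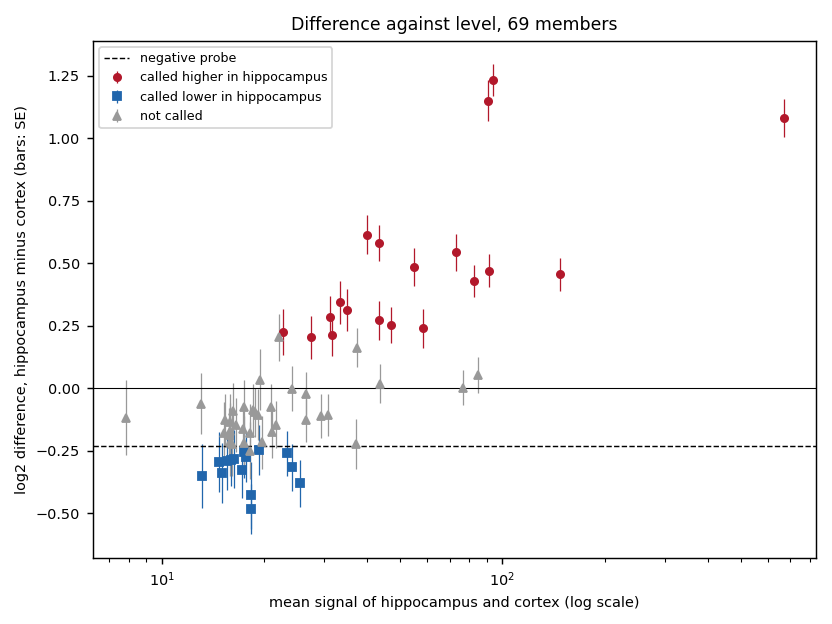
Log2 difference of hippocampus minus cortex (bars for the SE) against mean signal (log axis) for the 69 members, marked by call, with the negative probe's own difference of −0.23 as a dashed line. Members called lower sit at low signal near that line.

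Of the 10 enzymes of glutamate and GABA metabolism 5 were higher in hippocampus and 1 lower. The transaminase Got1 averaged 285 ± 52.7 in hippocampus and 163 ± 36.9 in cortex (log2 0.82, SE 0.07, adjusted p = 7.97e-13), and the transaminase Got2 was higher too (log2 0.74, SE 0.06), while Glul was the lower one (log2 −0.42, SE 0.06). Of the 11 partner and neighbouring carriers 1 was higher, Slc3a2 (log2 0.51, SE 0.07), and 3 were lower, among them Slc16a10, a carrier of aromatic amino acids (log2 −0.37, SE 0.10), and Slc1a2 (log2 −0.34, SE 0.07). Of the 15 enzymes of monoamine, acetylcholine and glycine metabolism 3 were higher and 4 lower. All 8 oligodendrocyte markers and 5 of 8 astrocyte markers were lower in hippocampus, and 5 of 7 excitatory neuron markers were higher and 2 lower. Their part in the members' differences was not tested.

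No member was called between motor and somatosensory cortex, where 0% of all genes were called. At an unadjusted p under 0.05 there were 2 members, Slc17a4 (log2 −0.31, SE 0.13, adjusted p = 0.903) and Slc17a3 (log2 0.29, SE 0.12, adjusted p = 0.903), both from the anion carriers of the Slc17 family, against 1100 of all 19962 genes. Neither was clear of background in any subregion, and with p16 low AOIs alone the differences turned to 0.01 and −0.12. Among the 34 members clear in at least 1 subregion the log2 differences of MC minus SS ran from −0.20 for Slc7a2 to 0.19 for Slc7a10, with a median SE of 0.09. Neither Slc7a2 nor Slc7a10 was clear of background in MC or SS.

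Slc38a2 was called in none of the comparisons between subregions. This neutral amino acid carrier averaged 40.9 ± 8.41 in CP, 45.1 ± 10.4 in CA3, 43.7 ± 7.38 in CA1, 42.9 ± 8.67 in MC and 43.7 ± 9.85 in SS. Slc6a21 was clear of background in CP through 1 animal, with 98.1 in CSS mouse 1163 and 14.7 to 21.3 in the other 8 mice.

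In hippocampus and cortex together no member was called when p16 high AOIs were set against the same mice's p16 low AOIs, where 0.386% of all genes were called higher and 0% lower. At an unadjusted p under 0.05 there were 9 members and 2828 of all 19962 genes. Cdkn2a itself differed by −0.04 on the log2 scale (SE 0.11, adjusted p = 0.920). Slc7a8, a light chain for neutral amino acids, had signals of 72.6, 101 and 131 in p16 high AOIs, against 60.1, 87.8 and 98.97 in p16 low AOIs (log2 0.22, SE 0.06, adjusted p = 0.0603). Slc7a6os had 26.2, 35.4 and 42.1 in p16 high AOIs, against 21.8, 27.7 and 37.4 in p16 low AOIs (log2 0.31, SE 0.08, adjusted p = 0.0702). Both differences were positive in 10 of 10 mice, with overlapping ranges. Slc17a7 had 442, 694 and 1009.7 in p16 high AOIs, against 389, 609.8 and 758 in p16 low AOIs (log2 0.15, SE 0.05, adjusted p = 0.123), positive in 8 of 10 mice.

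Slc7a8 and Slc7a6os passed under some alternatives. With only genes above the median signal tested, their adjusted p were 0.0314 and 0.0362. Slc7a6os also passed without mouse 1163 (adjusted p = 0.0496) and Slc7a8 without mouse 1182 (adjusted p = 0.0484). edgeR on recovered counts called Slc38a8 lower (log2 −0.34, adjusted p = 0.0400), a gene that was clear of background in no subregion and is named after its values were seen. In the same comparison 7 of 7 excitatory neuron markers had a positive difference, 1 of them called, and 8 of 8 inhibitory neuron markers a negative one, 0 of them called. Their part in the members' values was not tested.

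Within CA1, where 0.0902% of all genes were called higher in p16 high AOIs, no member was called. Slc7a14 had signals of 109, 132 and 197 in the p16 high AOIs of 8 mice, against 67.2, 108 and 137 in their p16 low AOIs (log2 0.38, SE 0.10, adjusted p = 0.0819). Slc1a1 had 143, 173 and 217 in p16 high AOIs, against 111, 149 and 177 in p16 low AOIs (log2 0.30, SE 0.09, adjusted p = 0.124). Both were positive in 8 of 8 mice with overlapping ranges, and Slc7a14 passed with only genes above the median signal tested (adjusted p = 0.0425). Slc7a6os lay between these 2 genes by p (log2 0.59, SE 0.16, adjusted p = 0.101).

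Within CA3, CP, MC and SS 0% of all genes were called between the p16 labels. In CA3 the smallest p-values were those of Slc38a2 (log2 0.54, SE 0.16, adjusted p = 0.184), Slc7a4 (log2 0.44, SE 0.14, adjusted p = 0.195) and the cationic amino acid carrier Slc7a2 (log2 −0.51, SE 0.18, adjusted p = 0.228), and Slc7a4 passed without mouse 1152 (adjusted p = 0.0302). In CP they were those of Slc6a17 (log2 −0.32, SE 0.11, adjusted p = 0.889), Slc6a8 (log2 −0.28) and the GABA carrier Slc6a13 (log2 0.45, positive in 7 of 7 mice). The members that set CP apart gave log2 differences there of −0.09 (SE 0.07) for Slc38a3, −0.12 (SE 0.10) for Slc7a10 and −0.20 (SE 0.11) for Slc6a20a. In MC the smallest p-values were those of Slc38a11, Slc17a6 and Slc6a11 (log2 −0.33, 0.34 and 0.15), and in SS those of Slc17a3, Slc7a8 and Slc18a2 (−0.75, 0.25 and 0.43).

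Between CSS and control mice no member was called in hippocampus and cortex together, in any of the 5 subregions, or in the difference of the p16 effect between the stress groups, and 0% of all genes were called in each. At an unadjusted p under 0.05 there were 2 members in hippocampus and cortex together, 2 in CP, 4 in CA1, 3 in CA3, 3 in MC, 4 in SS and 0 in the difference of the p16 effect. Among all 19962 genes there were 391 in hippocampus and cortex together, 655 in CP, 565 in CA1, 574 in CA3, 556 in MC, 737 in SS and 661 in the difference of the p16 effect. In hippocampus and cortex the smallest p was that of Slc6a21, with signals centred within subregion and p16 label of 14.1, 16.9 and 20.4 (lowest, median and highest) in 6 CSS mice, against 17.9, 19.3, 22.7 and 19.3 in 4 control mice (log2 −0.34, SE 0.13, adjusted p = 0.9997). The groups overlapped, and Slc7a13 (log2 −0.28) and Slc6a20b (−0.25) came next. Among the 34 members clear in at least 1 subregion the log2 differences ran from −0.34 for Slc6a21 to 0.19 for Slc38a3, with a median SE of 0.13. Both of these genes were clear of background in CP alone, so the ends of this range come from genes near background in hippocampus and cortex.

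The members with the largest differences between subregions were also compared by stress group, on signals centred within the p16 label. In CP, Slc38a3 averaged 327 ± 51.03 in 5 CSS mice and 319.5 ± 76.5 in 4 control mice (log2 0.05, SE 0.22). Slc7a10 averaged 274 ± 35.9 in CSS mice and 264 ± 66.9 in control mice (log2 0.07, SE 0.21), and Slc6a20a 131 ± 15.5 in CSS mice and 118 ± 24.1 in control mice (log2 0.15, SE 0.18). These differences were smaller than the SD between mice. In hippocampus and cortex Slc17a7 averaged 656 ± 74.05 in CSS mice and 676 ± 198 in control mice (log2 −0.01, SE 0.31), so its difference was known only to within that error.

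Single subregions gave values that did not pass the test, and in some of them the stress groups did not overlap. Of the 34 members clear in at least 1 subregion, groups did not overlap for 1 in CA1, 1 in MC and 0 in each of CP, CA3 and SS. These were Slc6a21 in CA1 and Slc38a3 in MC, and both genes were clear of background in CP alone. The share of all genes whose groups did not overlap is not given here, so these cases cannot be told from chance. In MC, Slc38a3 had centred signals of 30.2, 32.2 and 34.3 in 6 CSS mice, against 28.1, 22.3, 21.9 and 26.9 in 4 control mice (log2 0.38, SE 0.15, adjusted p = 0.999966), with no overlap, although its MC mean was under the background bar. In CA3, Slc6a20b had 7.88, 10.1 and 11.6 in CSS mice, against 15.2, 17.4, 15.98 and 17.1 in control mice (log2 −0.65, SE 0.25, adjusted p = 0.9998), and in CA1, Slc6a21 had 2.99, 13.9 and 16.03 in CSS mice, against 18.5, 17.7, 20.98 and 19.1 in control mice (log2 −0.72, SE 0.30, adjusted p = 0.999985). Both lay near the negative probe and did not overlap between the groups. Recovered counts per AOI averaged 624040 in CSS mice and 826280 in control mice, and the part of depth in these values was not tested. Depth varied widely among the control mice, with 745521 to 2098984 counts in the AOIs of mouse 1175 and 309285 to 505638 in those of mouse 1182. In SS, Slc7a6os had 25.2, 32.8 and 35.5 in CSS mice, against 18.9, 27.7, 23.2 and 24.1 in control mice (log2 0.44, SE 0.16, adjusted p = 0.9994), with overlap. In CP the smallest p-values were those of Slc17a3 (log2 0.51), Slc7a2 (0.43) and Slc6a6 (−0.38), and for the difference of the p16 effect those of Slc6a19 (log2 −0.41), Slc6a7 (0.35) and Slc36a3 (−0.35).

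**Figure D5:**
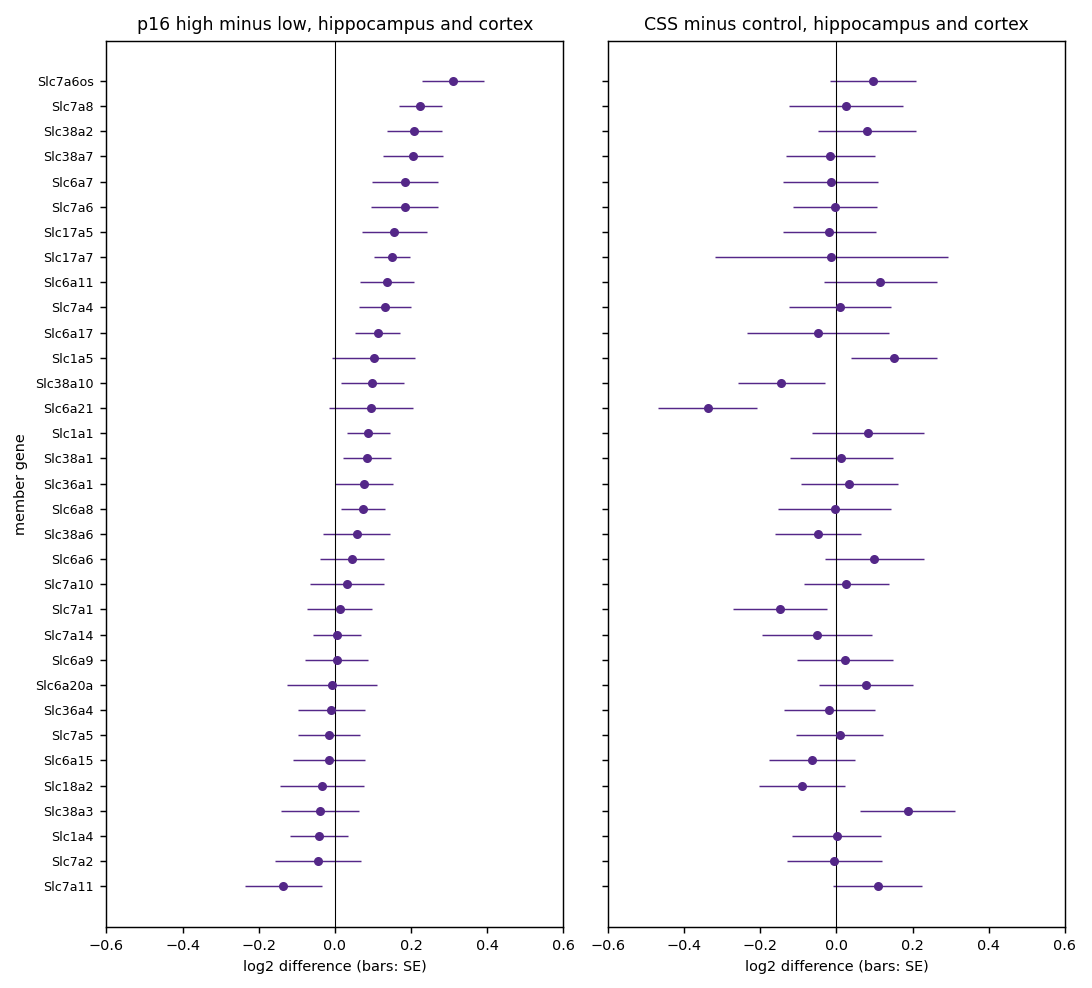
Log2 difference (points, bars for the SE) of members clear of background in at least 1 subregion, which for some, such as Slc7a11, was CP alone. Shown are p16 high minus low (left) and CSS minus control (right) in hippocampus and cortex. No member shown passed the test in either comparison, and the left panel runs from −0.14 for Slc7a11 to 0.31 for Slc7a6os.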

How the data were processed

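RNA in 90 AOIs of 10 mice was measured with the GeoMx mouse Whole Transcriptome Atlas on FFPE brain sections, per the labels. The deposited signal had been scaled by the authors so that every AOI has a median of 22.067, per the values of the file. The build is mm10, per the submitters' processing notes, and the processing tools were not stated there. Dividing by each AOI's step gave whole counts, within 0.01, for 99.985% to 99.995% of values.

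AOIs were averaged per mouse and condition, and log2(signal + 1) was fitted over all 19962 genes with limma 3.58.1 (R 4.3.3), with Benjamini-Hochberg adjustment and a threshold of 0.05. Fold changes on this scale understate changes of low genes. Contrasts between subregions and p16 labels had the mouse as a block, a pairing that comes from the shared animal. Over 41 pairs the deviations had a median correlation of 0.08, with a range of −0.02 to 0.59. The highest were those of control mouse 1175, at 0.45 to 0.59. For CSS against control, values were centred within subregion and p16 label and averaged per mouse. edgeR 4.0.16 on recovered counts was an alternative, with other scalings, filters, left-out mice and single p16 labels. The fits for CA3 against CA1, and for p16 label and stress in hippocampus and cortex, were also run on simulated counts with known changes. The outcome of that run is not given here, and the other comparisons were not simulated.

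Members and gene lists were chosen with earlier results of these data known. Named members are those called with the same sign in every mouse, up to 10 in each direction, or otherwise the 3 with the smallest p. Symbols were matched to RefSeq (GRCm38.p6) for all 69 members and for 19846 of all genes. Some genes stay in the fits and counts but are not reported here by name.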

Additional observations from a re-analysis of the deposited data

Results flagged for a closer look

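Of 201 groups of 4 to 10 mice, 8 held a mouse far from the others, and chance gives about 1 in 20. CSS mouse 1163 stood apart in 3. In CP its Slc6a21 signal was 98.1, against 14.7 to 21.3 in the other 8 mice. Its centred log2 value of Slc6a21 in CA1 was 2.09, against 3.39 to 4.08 in the other CSS mice, and that of Slc7a15 in SS was 5.95, against 3.79 to 4.47.

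Control mouse 1151 was high in CA1 for Slc7a14, at a signal of 167 against 91.0 to 130.04 in the other 9 mice. CSS mouse 1170 was high in CA1 for Slc7a10, at 52.4 against 16.8 to 32.7, and in SS for Slc7a4, at 84.1 against 46.2 to 63.6. The difference of CP from the other subregions for Slc6a20a was 1.88 on the log2 scale in control mouse 1175, against 2.51 to 3.10 in the other 8 mice. The centred log2 value of Slc7a13 in CA1 was 3.92 in control mouse 1182, against 4.40 to 4.42 in the other control mice.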

How the results depend on the processing

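Of 714 values of named members recomputed under alternatives in the 3 comparisons between subregions that had calls, 695 kept their direction and side of the threshold, 13 lost their call and 6 reversed. In CA3 against CA1, 11 members were called higher under quantile normalization, 13 under scaling to the 75th percentile and 11 with edgeR, against 6 with the main settings. Members called lower there were 2 under scaling to the 75th percentile, 2 with p16 high AOIs alone, and 2 to 4 with a mouse left out, against 4. In hippocampus against cortex, members called lower were 5 among genes above the median signal, 1 with the negative probe subtracted, 49 under scaling to the 75th percentile, 38 with edgeR, 9 with p16 high AOIs alone and 2 with p16 low AOIs alone, against 15, and members called higher were 3 under quantile normalization and 6 under scaling to the 75th percentile, against 19. Reversed there were Slc17a7 at −0.075, Slc7a4 at −0.10, Slc7a8 at −0.27, Slc6a17 at −0.38 and Slc6a8 at −0.27 under quantile normalization, and Slc38a10 at −0.038 under scaling to the 75th percentile. Over all genes this comparison had 6864 higher and 3330 lower calls with the main settings, 3088 and 2660 under quantile normalization, 3749 and 12451 under scaling to the 75th percentile, 5898 and 8870 with edgeR, and 8723 and 461 with the negative probe subtracted. CA3 against CA1 had 1007 and 2528 with the main settings, 1562 and 1631 under quantile normalization and 2525 and 1442 under scaling to the 75th percentile, and the split of CP against the other subregions was 4113 and 3921, and 5280 and 3174 with the negative probe subtracted. For p16 high against low in hippocampus and cortex, members called higher were 2 among genes above the median signal and 0 to 1 with a mouse left out, and edgeR called 1 lower. In CA1 1 was called higher among genes above the median signal, and in CA3 0 to 1 with a mouse left out, against 0 in each. The cause of these changes was not tested. Members clear of background were 20 at 3 times the negative probe, 41 at 1.5 times and 33 to 35 with a mouse left out, against 34, all chosen after the data were seen. With no replicate block the members called higher and lower were 8 and 13 in CP, 5 and 3 in CA3 against CA1, and 15 and 12 in hippocampus against cortex, and no p16 comparison gained a call. Depth limits the precision of members near the negative probe.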
